A study of Mus musculus with 2 samples.

Results

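The genes described here are 41 genes of the synapse, of which 29 act on synaptic vesicles and transmitter release and 12 join the 2 sides of the synapse or scaffold its postsynaptic density. They were chosen by name, not by their values. The count table of 15474 genes held 40 of them, 28 vesicle and release genes and all 12 adhesion and scaffold genes, and Slc32a1 was not analysed here. Of these 40 genes, 34 had at least 20 UMIs (unique molecular identifiers, 1 per captured transcript) over both libraries. The other 6 were Sv2b with 2 fresh and 1 MeOH-fixed UMI, Rims1 with 2 and 7, Gad2 with 2 and 0, Nlgn3 with 8 and 11, Shank1 with 3 and 7, and Shank2 with 2 and 3.

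Neurons store transmitter in synaptic vesicles, which synapsins tether, SNARE proteins fuse with the membrane and synaptotagmins couple to calcium. Across the cleft, neurexins bind neuroligins, and the PSD-95, Homer and Shank families anchor receptors under the postsynaptic membrane. In the dentate gyrus, new granule neurons arise from radial glia-like cells (RGLs) through neuronal intermediate progenitor cells (nIPCs) and neuroblasts, and form synapses as they mature.

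The study sorted single cells of the dentate gyrus of C57BL/6J mice aged 4 to 5 weeks into wells and sequenced them by SORT-seq, which reads the 3′ end of each transcript. Cells of the fresh library were pooled from 3 mice and sorted right after dissociation with the help of a dead-cell stain. Cells of the MeOH-fixed library were pooled from 4 mice, fixed in methanol, kept frozen for 3 weeks, rehydrated and sorted without that stain. Each condition was a single library, so that fixation, storage, stain, sort and mice cannot be told apart and no test between the conditions was possible. After the authors' filter the fresh library held 64 of 384 barcodes with 534122 UMIs and the MeOH-fixed library 132 of 384 with 729018 UMIs, at medians of 6318 and 3452 UMIs per cell.

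Levels are given as CPM, the UMIs of a gene summed over cells per 1000000 UMIs of those cells, with exact 95% Poisson intervals. All intervals cover counting error only. A gene was called higher or lower where its CPM differed at least 2-fold between the 2 sides and the intervals did not overlap, among genes with at least 20 UMIs over both sides. The cell identities are those the authors assigned from the transcripts of these same cells, so that differences between identities are descriptions.

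The neuronal identities were set against their marker genes. In the MeOH-fixed library, all 6 immature and all 5 mature markers were detected in the summed UMIs of the 25 immature neurons. The same held for the 19 mature neurons. The lowest cell of either identity held no UMI of the mature markers, and the lowest mature neuron held none of the immature markers. The mature markers summed to 537 CPM in immature and 898 CPM in mature neurons. In the fresh library, the mature markers summed to 1207 CPM in the 5 immature neurons, while the 2 cells labelled mature neurons held 1 UMI of them. Those 2 cells also had no UMI of Snap25, Nsf or Slc17a7. In one of them 23.5% of the UMIs were of Kcnq1ot1, a long non-coding RNA, and in the other 51.2% were of Rn45s, a ribosomal RNA precursor. The data thus go against the label of these 2 cells. No level of fresh mature neurons is read on its own here, apart from a Syt7 ratio flagged below. The counts of calls and the detection share over fresh neurons are also given without them. Levels and ratios of fresh neurons as a whole include these 2 cells, which held 12246 of the 108345 UMIs.

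The promoters of 4 members are shown because these genes differed between cell identities or served as a reference. Slc17a6 was found in nIPCs and neuroblasts, Slc17a7 mostly in neurons, Nrgn was the member with the most UMIs, and Syn1, the vesicle tether synapsin I, carried a cyclic AMP response element. The RefSeq table of GRCm38 promoters held 31 of the 40 members, each promoter running from 250 bases before to 50 after the transcript start. The windows lie at chr7:51621580-51621879 on the plus strand (Slc17a6), chr7:45163671-45163970 on the plus strand (Slc17a7), chr9:37552696-37552995 on the minus strand (Nrgn) and chrX:20920869-20921168 on the minus strand (Syn1). Each is written 5′ to 3′ along its gene. Capitals mark GGGCGG, the GC box, or its reverse complement in the promoters of Slc17a6, Slc17a7 and Nrgn, and in that of Syn1 the core TGACG of the cyclic AMP response element, found on both strands in overlap.
Slc17a6: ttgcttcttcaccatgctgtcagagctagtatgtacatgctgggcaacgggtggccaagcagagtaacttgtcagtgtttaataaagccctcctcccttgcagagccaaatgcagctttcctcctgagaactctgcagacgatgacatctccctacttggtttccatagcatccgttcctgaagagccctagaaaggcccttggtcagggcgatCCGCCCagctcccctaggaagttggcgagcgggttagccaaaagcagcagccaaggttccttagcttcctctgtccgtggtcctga
Slc17a7: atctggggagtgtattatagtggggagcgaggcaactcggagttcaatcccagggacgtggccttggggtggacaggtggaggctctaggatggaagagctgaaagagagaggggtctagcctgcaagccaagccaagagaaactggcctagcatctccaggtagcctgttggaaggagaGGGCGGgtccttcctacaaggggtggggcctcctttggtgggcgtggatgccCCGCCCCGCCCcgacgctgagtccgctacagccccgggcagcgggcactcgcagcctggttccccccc
Nrgn: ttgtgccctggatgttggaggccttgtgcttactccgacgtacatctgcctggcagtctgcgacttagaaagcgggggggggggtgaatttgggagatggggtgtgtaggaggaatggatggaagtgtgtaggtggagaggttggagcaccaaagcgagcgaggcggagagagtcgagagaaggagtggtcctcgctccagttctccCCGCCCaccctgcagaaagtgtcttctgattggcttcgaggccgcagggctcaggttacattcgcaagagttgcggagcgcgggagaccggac
Syn1: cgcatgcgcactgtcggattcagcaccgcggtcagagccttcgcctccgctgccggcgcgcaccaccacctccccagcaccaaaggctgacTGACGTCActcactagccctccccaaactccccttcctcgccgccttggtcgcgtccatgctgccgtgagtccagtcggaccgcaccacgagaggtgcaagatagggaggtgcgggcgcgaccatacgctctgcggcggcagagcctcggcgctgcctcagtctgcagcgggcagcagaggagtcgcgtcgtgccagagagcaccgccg
With both strands searched in the first promoter of each gene, a GC box stood in 17 of 23 vesicle and release promoters and in 3 of 8 adhesion and scaffold promoters, beside 35.9% of the promoters of all 27025 genes. The core TGACG stood in 7 of 23 and 2 of 8, beside 21.0% of all. An E-box, CANNTG, stood in 17 of 23 and 5 of 8, beside 72.1% of all. A match describes the letters of the window and is no measured site.

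As sums, both groups of genes were highest in immature neurons, the adhesion and scaffold genes through Nrgn. Both stood there at like levels in the 2 libraries. The vesicle and release genes summed to 14058 CPM (13319 to 14829) in fresh and 14662 CPM (14233 to 15101) in MeOH-fixed immature neurons. In nIPCs and neuroblasts, 16 fresh and 21 MeOH-fixed cells, they stood at 4000.3 CPM (3710.01 to 4307) and 4087 CPM (3675 to 4531), and in non-neuronal cells, 41 and 67, at 2228 CPM (2046 to 2421) and 2929 CPM (2722 to 3147). The adhesion and scaffold genes summed to 8689 CPM (8110 to 9299) and 9054 CPM (8717 to 9400) in immature neurons and to 552 CPM (448 to 673) and 931 CPM (740 to 1155) in nIPCs and neuroblasts. In immature neurons Nrgn made up most of this second sum. Without it, the adhesion and scaffold genes stood at 1051 and 908 CPM in immature neurons and at 376 and 397 CPM in nIPCs and neuroblasts. They then stood at 1012 and 1372 CPM in OPCs and at 1318 CPM in MeOH-fixed mature neurons. Immature neurons were thus not the highest identity for this sum in the MeOH-fixed library.

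**Figure D1:**
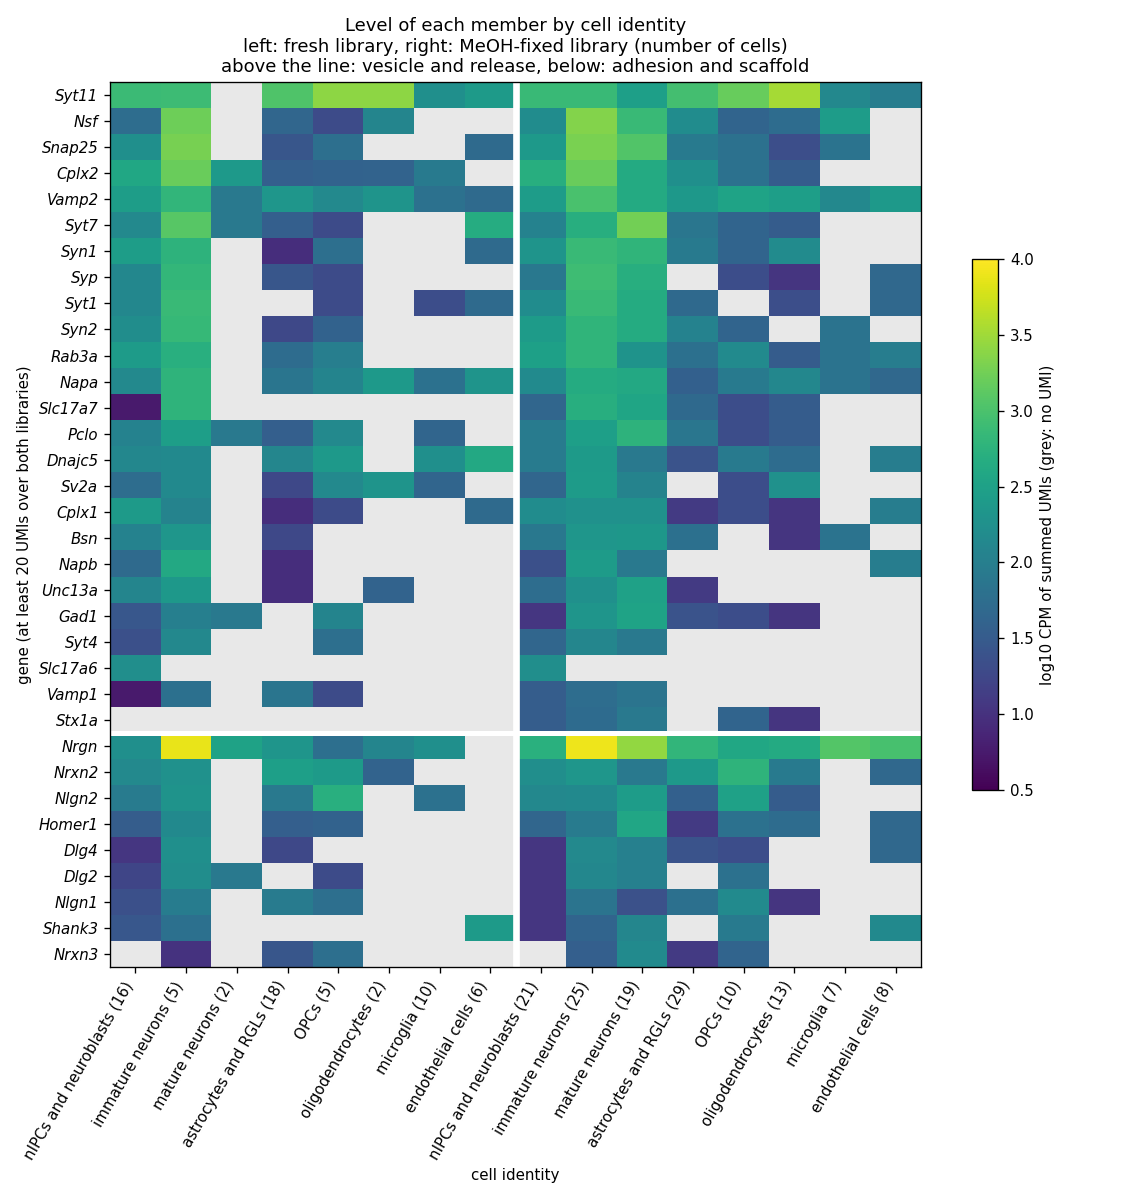
Level of the 34 members with at least 20 UMIs, as log10 CPM of summed UMIs, in each cell identity, fresh on the left and MeOH-fixed on the right, with grey for no UMI. Most genes are brightest in immature neurons, Syt11 is brightest in OPCs and oligodendrocytes, and the 2 fresh cells labelled mature neurons are grey for most genes.

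Single cells of an identity differed widely. In the 5 fresh immature neurons the vesicle and release genes took 13068, 13546, 13726, 14194 and 39135 CPM, the last in a cell of only 971 UMIs, and the lowest in a cell with 33.6% mitochondrial UMIs. Among the MeOH-fixed immature neurons, the lowest cell stood at 8129, the median at 14476 and the highest at 17249 CPM. The MeOH-fixed mature neurons ran from 2977 through 9231 to 15573 CPM and overlapped with the immature ones. The nIPCs and neuroblasts ran from 1805 to 9519 CPM in the fresh and from 1349 to 8475 CPM in the MeOH-fixed library, so that in the MeOH-fixed library their highest cell reached the range of the immature neurons. Among MeOH-fixed non-neuronal cells, 1 of the astrocytes and RGLs stood at 13333 CPM, within the range of immature neurons, and its label was not changed here.

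**Figure D2:**
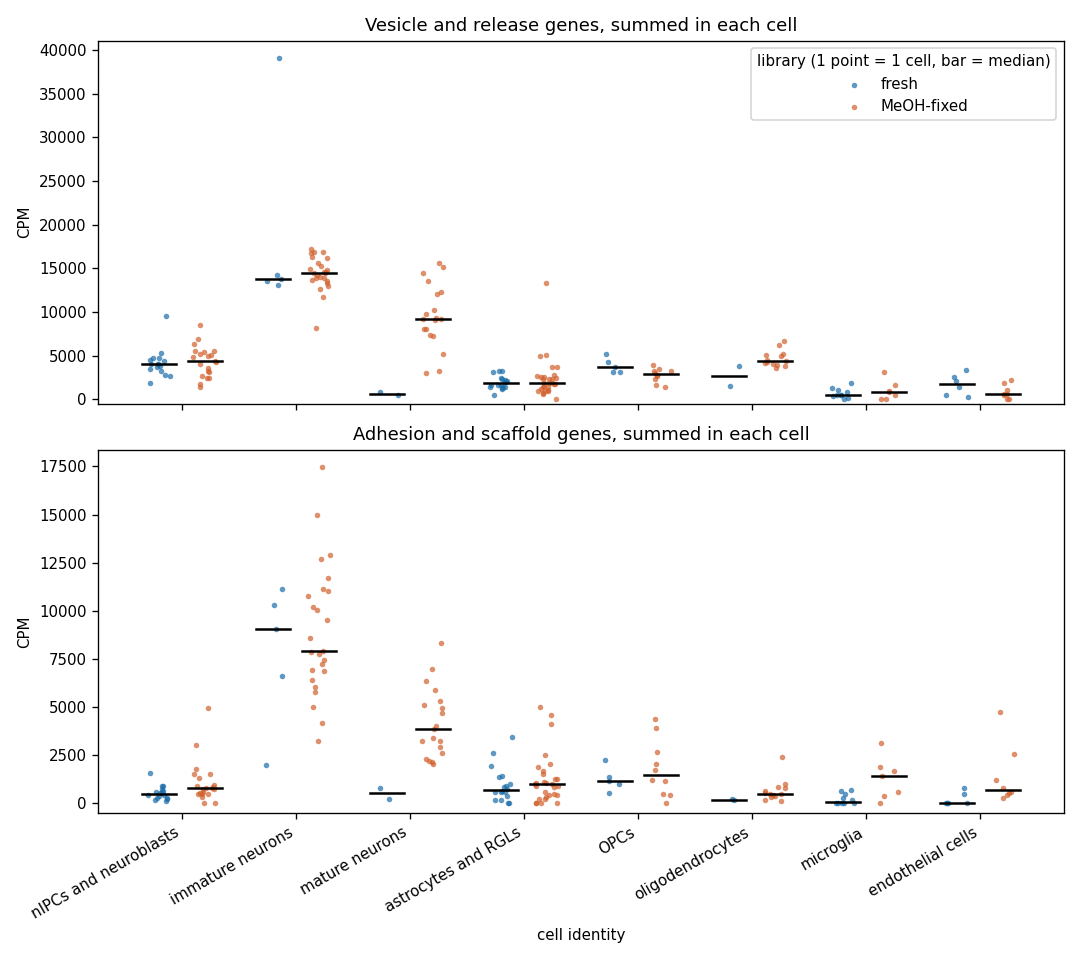
Summed level of the vesicle and release genes (top) and of the adhesion and scaffold genes (bottom) in each cell, in CPM, by cell identity and library, with 1 point per cell and a bar at the median. Immature neurons lie highest, with medians of 13726 CPM (fresh) and 14476 CPM (MeOH-fixed) for the vesicle and release genes, and the fresh cell at 39135 CPM has 971 UMIs.

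Between neurons and non-neuronal cells, 18 of 24 members were called higher in fresh neurons, beside 17.8% of all genes, and 0 lower, beside 20.2%. Without the 2 doubtful cells the count was again 18 of 24. In the MeOH-fixed library 29 of 33 members were called higher in neurons, beside 22.8% of all genes, and 1 lower, beside 13.8%. The 2 groups of genes differed in these counts. Of the vesicle and release genes, 16 of 19 were called higher in fresh and 23 of 24 in MeOH-fixed neurons, and of the adhesion and scaffold genes 2 of 5 and 6 of 9. Without the doubtful cells the fresh counts were again 16 of 19 and 2 of 5. Many members reached 20 UMIs only through neurons, so that these counts stand for the members counted and not for the whole list.

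Between immature neurons and nIPCs with neuroblasts, 15 of 25 members were called higher in fresh immature neurons, beside 17.7% of all genes, and 1 lower, Slc17a6, beside 13.0%. In the MeOH-fixed library, 22 of 30 were called higher, beside 17.6%, and 0 lower, beside 9.09%. Slc17a6 fell under the minimum of 20 UMIs there, with 15 UMIs. Many members reached the minimum in that library only through immature neurons, such as Dlg4 with 43 UMIs there and 1 in nIPCs and neuroblasts. These counts thus stand for the members counted and not for the whole list. The vesicle and release genes as a sum were 3.51-fold (3.21 to 3.86) higher in fresh and 3.59-fold (3.22 to 4.01) higher in MeOH-fixed immature neurons, and the adhesion and scaffold genes 15.7-fold (12.7 to 19.6) and 9.73-fold (7.81 to 12.3). Without Nrgn the latter were 2.80-fold (2.03 to 3.88) and 2.28-fold (1.60 to 3.35).

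The genes of the fusion machinery were among the vesicle and release genes with the most UMIs. Snap25, which encodes a SNARE protein of the presynaptic membrane (GRCm38 chromosome 2, 136713453 to 136782428, plus strand), stood at 1894 CPM (1629 to 2190) in fresh and 1961 CPM (1806 to 2126) in MeOH-fixed immature neurons. It stood at 176 and 250 CPM in nIPCs and neuroblasts, and at 28.0 and 51.3 CPM in non-neuronal cells, and 12 of 21 MeOH-fixed nIPCs and neuroblasts had a UMI of it. Snap25 was detected in all 5 fresh and all 25 MeOH-fixed immature neurons. Vamp2, the vesicle SNARE synaptobrevin, was spread more widely. It stood at 645 CPM (495 to 827) and 977 CPM (869 to 1095) in immature neurons but also at 160 CPM (114 to 218) and 268 CPM (208 to 340) in non-neuronal cells, with a UMI in 18 of 41 and 32 of 67 of them. Its relative Vamp1 had 16 fresh and 26 MeOH-fixed UMIs, and Vamp2 made up 91.2% (81.8 to 96.7%) and 94.6% (91.4 to 96.8%) of the UMIs of the pair in immature neurons. Stx1a, the syntaxin partner of Snap25, had no UMI in any of the 64 fresh cells and 29 UMIs in the MeOH-fixed cells, 16 of them in immature and 7 in mature neurons.

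Nsf, the ATPase that takes SNARE complexes apart after fusion (chromosome 11, 103821782 to 103954056, minus strand), differed widely between nIPCs with neuroblasts and immature neurons. It stood at 56.9 CPM (27.3 to 105) in fresh nIPCs and neuroblasts and 1675 CPM (1427 to 1955) in immature neurons, a 29.4-fold difference (15.6 to 62.6). In the MeOH-fixed library the levels were 159 CPM (86.9 to 267) and 2243 CPM (2077 to 2418), a 14.1-fold difference (8.35 to 26.0). The reads of Nsf may include those of Gm8738, an annotated gene on the same strand that overlaps it. Its adaptors differed in their levels outside neurons. Napa, alpha-SNAP, stood at 593 and 454 CPM in immature neurons and at 108 and 82.9 CPM in non-neuronal cells, while Napb, beta-SNAP, stood at 406 and 265 CPM and at 4.00 and 7.89 CPM. Napa thus took 59.4% (48.9 to 69.3%) and 63.1% (56.3 to 69.6%) of the UMIs of this pair in immature neurons and 96.4% (81.7 to 99.9%) and 91.3% (72.0 to 98.9%) in non-neuronal cells.

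The complexins, which clamp and promote SNARE fusion, differed in their balance between nIPCs with neuroblasts and immature neurons. Like the Nsf difference, this is not read as a time course, since nIPCs and neuroblasts also held markers of mossy and CA3 cells, given below. The part of such cells was not tested. Cplx2 (chromosome 13, 54371349 to 54383917, plus strand) stood at 381 CPM (295 to 484) and 488 CPM (353 to 658) in nIPCs and neuroblasts and at 1571 CPM (1331 to 1843) and 1610.0 CPM (1470.02 to 1760) in immature neurons. Cplx1 stood at 256 CPM (187 to 343) in fresh nIPCs and neuroblasts and 114 CPM (57.1 to 205) in fresh immature neurons, with overlapping intervals, and at 159 and 186 CPM in the MeOH-fixed ones. Cplx2 made up 59.8% (50.1 to 69.0%) of complexin UMIs in fresh nIPCs and neuroblasts and 93.2% (88.2 to 96.6%) in immature neurons, with 75.4% (62.2 to 85.9%) and 89.7% (86.8 to 92.1%) in the MeOH-fixed library. In MeOH-fixed mature neurons the share was 69.8% (55.7 to 81.7%), but the deepest cell held 10 of the 16 Cplx1 UMIs and 2 of the 37 Cplx2 UMIs. Without it, 6 UMIs of Cplx1 and 35 of Cplx2 were left, so that no change of the share in mature neurons is read. Unc13a, the priming factor Munc13-1, was called higher in neurons than in non-neuronal cells in both libraries, with 2 and 1 UMIs in the latter.

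Of the genes at the vesicle itself, Syn1 and Syn2, the synapsins, stood at 583 and 697 CPM in fresh and 742 and 623 CPM in MeOH-fixed immature neurons. Syn1 overlaps Araf and Timp1 on the opposite strand, and Snap25 overlaps Gm14053, and whether the counting used strand is not given in the sources used here. Syp, synaptophysin of the vesicle membrane, stood at 656 CPM (504 to 839) and 832 CPM (732 to 941) there and at 16.0 and 11.8 CPM in non-neuronal cells. Rab3a, the vesicle GTPase, stood at 267 and 307 CPM in nIPCs and neuroblasts and at 510 and 623 CPM in immature neurons. Sv2a, a vesicle glycoprotein, stood at 146 and 265 CPM in immature neurons and at 206 and 187 CPM in oligodendrocytes, with overlapping intervals in both libraries. Dnajc5, a chaperone of the vesicle, was not called higher in fresh neurons, with 129 CPM (70.6 to 217) in neurons and 168 CPM (121 to 227) in non-neuronal cells, and was 4.22-fold (2.34 to 8.26) higher in MeOH-fixed neurons. Bsn and Pclo, which organise the active zone, stood at 219 and 291 CPM in fresh and 215 and 295 CPM in MeOH-fixed immature neurons.

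The synaptotagmins had unlike patterns. Syt1, the calcium sensor of fast release, was almost absent outside the lineage, with 749 and 735 CPM in immature neurons and 12.0 and 27.6 CPM in non-neuronal cells. Syt4 stood at 135 and 126 CPM in immature neurons. Syt11, a synaptotagmin that binds no calcium (chromosome 3, 88744700 to 88775164, minus strand), was highest in oligodendrocytes, at 2550 CPM (1955 to 3269) in fresh and 3329 CPM (2964 to 3727) in MeOH-fixed cells. In OPCs it stood at 2540 CPM (2119 to 3020) and 1544 CPM (1208 to 1944), and in astrocytes and RGLs at 1086 and 904 CPM. Neurons held less, 711 CPM (561 to 888) and 650.2 CPM (572 to 736). Syt11 was the 1 member called lower in MeOH-fixed neurons than in non-neuronal cells, by 2.74-fold. Non-neuronal cells held 80.7% of its fresh and 64.2% of its MeOH-fixed UMIs in the neurons and non-neuronal cells together. Without Syt11, the vesicle and release genes were 12.6-fold (10.9 to 14.5) higher in fresh and 11.3-fold (10.0357 to 12.8) higher in MeOH-fixed neurons than in non-neuronal cells, against 5.63-fold and 4.65-fold with it.

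Syt7, the sensor of slow and asynchronous release (chromosome 19, 10389090 to 10453180, plus strand), differed between the libraries and between the neuronal identities. The 5 fresh immature neurons held 33, 31, 44, 8 and 1 UMIs, 1217 CPM (1007 to 1459) in all, and the 25 MeOH-fixed ones 150 UMIs, 497 CPM (421 to 583). The MeOH-fixed mature neurons held 155 UMIs, 1808 CPM (1535 to 2117), with a UMI in 17 of 19 cells. In fresh endothelial cells Syt7 stood at 464 CPM from 9 UMIs in 2 of 6 cells. Gm26859 overlaps Syt7 on the opposite strand and AC124169.1 on the same strand, and their part in these counts was not tested.

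The vesicular glutamate transporters differed between the identities. Slc17a6, VGLUT2, was found in nIPCs and neuroblasts and in no other identity, with 30 UMIs in 8 of 16 fresh and 15 UMIs in 5 of 21 MeOH-fixed cells, 171 CPM (115 to 244) and 170.3 CPM (95.3 to 281). Its 0 UMIs in fresh immature neurons put it at least 5.47-fold lower there, against a floor of 3 UMIs. Slc17a7, VGLUT1, had 58 UMIs in 4 of 5 fresh immature neurons, 604 CPM (458 to 780), and 151 UMIs in 24 of 25 MeOH-fixed ones, 500.2 CPM (424 to 587), against 1 and 4 UMIs in nIPCs and neuroblasts. Among nIPCs and neuroblasts, 1 fresh and 0 MeOH-fixed cells held both transporters. In MeOH-fixed mature neurons Slc17a7 stood at 362 CPM (246 to 513). Nothing of the Slc17a6 pattern can be read as a time course, since the nIPCs and neuroblasts also held markers of mossy and CA3 cells at 1138 and 817 CPM, above the 333 and 414 CPM of immature neurons, and their part in it was not tested. Of the 4 genes of that list, 3 were detected there in each library, and the list holds Calb2, which is also a marker of neuroblasts.

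Of the genes of GABA synthesis, Gad1, the larger glutamate decarboxylase, was found in neurons and in some other cells. It stood at 104 CPM (49.9 to 191) in fresh and 209 CPM (160 to 267) in MeOH-fixed immature neurons and at 338 CPM (227 to 486) in MeOH-fixed mature neurons. It was present in 23 of 25 MeOH-fixed immature neurons, and all 23 also held Slc17a7, as did the 3 fresh immature neurons with Gad1. Of the 11 MeOH-fixed mature neurons with Gad1, 7 held Slc17a7. In fresh non-neuronal cells Gad1 had 6 UMIs, in 4 of 5 OPCs at 119 CPM (43.7 to 259), an interval that overlapped that of fresh immature neurons, and these 4 cells held no Slc17a7. Of the 3 fresh nIPCs and neuroblasts with Gad1, 1 held Slc17a7. Gad2, the smaller decarboxylase, had 2 fresh UMIs and 0 MeOH-fixed ones, and 0 of 44 MeOH-fixed neurons held it. The interneuron markers listed (8 genes, 6 of them in the counts) summed to 250 and 530.04 CPM in immature neurons with 2 genes detected, and to 338 CPM in MeOH-fixed mature neurons with 1 detected. They stood at 341 and 1873 CPM in nIPCs and neuroblasts, and their part in the Gad1 levels was not tested. Gad1 (chromosome 2, 70553072 to 70602014, plus strand) overlaps Gad1os on the opposite strand, and their reads cannot be told apart without strand.

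**Figure D3:**
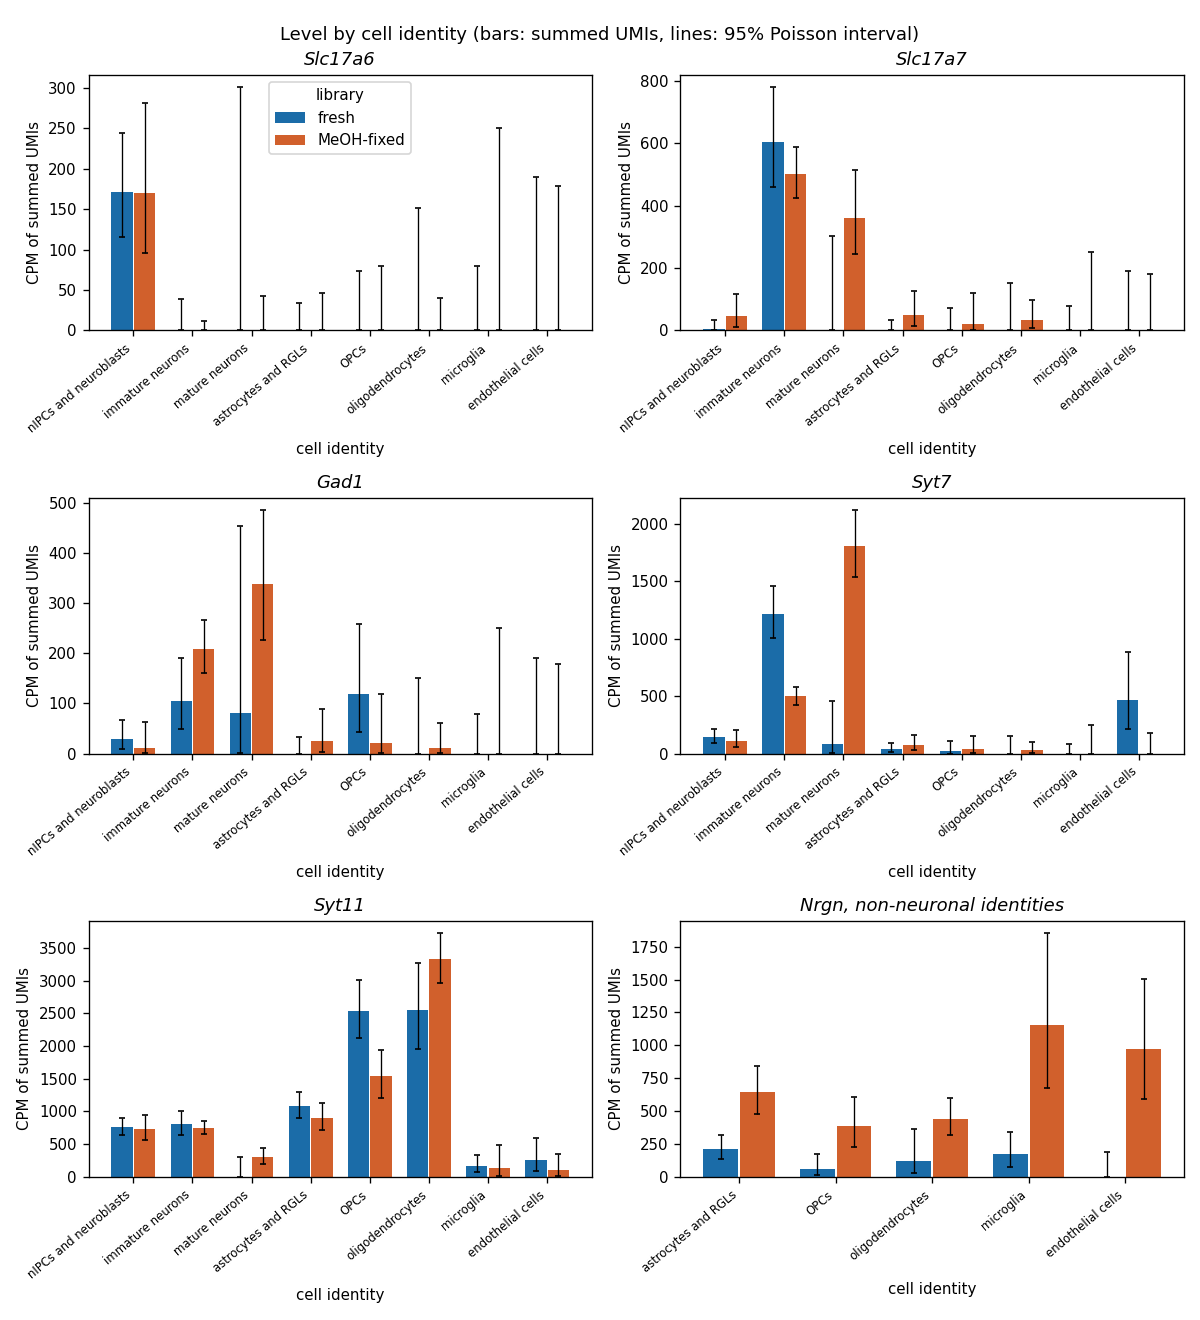
Level of Slc17a6, Slc17a7, Gad1, Syt7 and Syt11 in each cell identity and of Nrgn in the non-neuronal identities, as CPM of summed UMIs from 0, with bars for the library and lines for the exact 95% Poisson interval. Slc17a6 stands in nIPCs and neuroblasts alone at 171 and 170.3 CPM, Syt11 is highest in oligodendrocytes and OPCs, and Nrgn has the higher bar in each MeOH-fixed non-neuronal identity, with overlapping intervals in oligodendrocytes.

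Among the adhesion and scaffold genes, Nrgn stood far above the rest. Nrgn encodes neurogranin, a calmodulin-binding protein of dendritic spines (chromosome 9, 37544492 to 37552904, minus strand, overlapping no other annotated gene). It stood at 7638 CPM (7095 to 8211) in fresh and 8146 CPM (7827 to 8475) in MeOH-fixed immature neurons. The fresh cells held 317, 178, 228, 2 and 9 UMIs, the 2 low values in the cells of 3520 and 971 UMIs. Per kb of exon, the level of Nrgn in immature neurons was 5257 and 5606 CPM, beside 319 and 327 CPM for Cplx2 and 279 and 289 CPM for Snap25, although 3′ reads do not scale with length. In MeOH-fixed mature neurons Nrgn stood at 2683 CPM (2348 to 3054), with a UMI in all 19 cells.

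Among the adhesion genes, Nlgn2 and Nrxn3 were called higher in MeOH-fixed neurons than in non-neuronal cells, by 2.09-fold (1.26 to 3.59) and 5.23-fold (1.59 to 27.1), and none was called in the fresh library. Of the 23 UMIs of Nlgn2 in MeOH-fixed mature neurons, 14 lay in 1 cell, and its call without that cell is not given here. Nrxn2, a presynaptic neurexin, stood at 187 CPM (111 to 296) and 215 CPM (166 to 275) in immature neurons, 301 and 248 CPM in astrocytes and RGLs and 258 and 600.4 CPM in OPCs. Nlgn2, the neuroligin of inhibitory synapses, stood at 198 and 146 CPM in immature neurons and 516 CPM (337 to 756) and 322 CPM (180.0 to 530.5) in OPCs. Nlgn1, the neuroligin of excitatory synapses, was not called in either library, with 83.1 and 59.3 CPM in neurons and 52.0 and 51.3 CPM in non-neuronal cells. Nrxn3 had 7 UMIs in the fresh library and 27 in the other, 24 of these in neurons.

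Of the scaffold genes, Dlg4, Dlg2 and Homer1 were called higher in MeOH-fixed neurons. Dlg4, which encodes PSD-95, had 17 UMIs in fresh and 43 in MeOH-fixed immature neurons, 177 CPM (103 to 283) and 142 CPM (103 to 192), and 2 and 4 UMIs in non-neuronal cells. Dlg2, PSD-93, stood at 166 CPM (95.2 to 270.4) and 133 CPM (94.7 to 180.4) and had 1 and 3 UMIs in non-neuronal cells. Homer1, which links receptors to the scaffold, was called higher in neurons of both libraries, by 5.38-fold (1.94 to 17.1) and 3.86-fold (1.96 to 8.46). Of its MeOH-fixed UMIs, 22 lay in 1 mature neuron, and the ratio without that cell is not given here. Shank3, a scaffold deeper in the density, fell under the minimum in the fresh library and was not called in the MeOH-fixed one, with 55.4 and 61.9 CPM in neurons and 258 CPM (83.7 to 601) and 146 CPM (30.1 to 426) in endothelial cells from 5 and 3 UMIs.

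Outside neurons, the CPM of Nrgn was above the fresh value in each MeOH-fixed identity, with overlapping intervals in oligodendrocytes. It stood at 210 CPM (133 to 315) in fresh and 644 CPM (481 to 845) in MeOH-fixed astrocytes and RGLs, at 59.5 and 386 CPM in OPCs, at 123 and 441 CPM in oligodendrocytes, at 173 and 1156 CPM in microglia, and at 0 and 972 CPM in endothelial cells. It was called higher in 4 of these 5 identities, where the 4 members tested in astrocytes and RGLs, 5 in OPCs, 1 in microglia and 1 in endothelial cells gave no other call. The shares of all genes called higher were 3.65% in astrocytes and RGLs, 4.10% in OPCs, 6.52% in microglia and 6.22% in endothelial cells. In oligodendrocytes 0 of 4 members were called higher, beside 5.52% of all genes. In nIPCs and neuroblasts Nrgn was the 1 member of 21 called higher, at 176 and 534 CPM (392 to 709), beside 4.45% of all genes, and 0 were called lower, beside 3.33%.

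With each cell thinned to 800 UMIs, 14.6% of fresh and 37.3% of MeOH-fixed non-neuronal cells held a UMI of Nrgn, and unthinned 43.9% and 77.6%. The median depth of these cells was 5504 UMIs in the fresh library and 2648 in the MeOH-fixed one. The level of Nrgn outside neurons was 2.17% of that in neurons in the fresh and 8.36% in the MeOH-fixed library, and for Snap25 1.67% and 2.89%. Nrgn made up 80.1% (77.4 to 82.7%) of the UMIs of Nrgn and Snap25 in fresh immature neurons and 84.1% (69.9 to 93.4%) in fresh non-neuronal cells. In the MeOH-fixed library the shares were 80.6% (79.1 to 82.0%) in immature neurons and 91.9% (86.5 to 95.6%) in non-neuronal cells, so that the intervals lay apart there. The Nrgn level of nIPCs and neuroblasts lay within the range of the non-neuronal identities in both libraries, and is not read as expression here. Free RNA as a source of Nrgn in these cells was not tested.

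Over all filtered cells, the vesicle and release genes were 1.79-fold (1.71 to 1.87) higher in the MeOH-fixed library, from 4902 CPM (4716 to 5093) to 8756 CPM (8542 to 8973). The adhesion and scaffold genes were 2.28-fold (2.13 to 2.45) higher, at 2058 and 4701 CPM, and 1.36-fold (1.18 to 1.57) without Nrgn. Of 34 members tested, 12 were called higher, beside 6.62% of all genes, and 1 lower, beside 5.21%. The median log2 ratio was 0.89 over these members and 0.09 over all 8804 genes tested. Those called higher were Syn1, Syp, Syt1, Snap25, Stx1a, Vamp2, Sv2a, Slc17a7, Gad1 and Nsf of the 25 vesicle and release genes and Homer1 and Nrgn of the 9 adhesion and scaffold genes. Of the 73 MeOH-fixed UMIs of Homer1, 22 lay in 1 mature neuron, and its call without that cell is not given here. The 1 called lower was Slc17a6, by 2.73-fold (1.42 to 5.46).

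The libraries differed in their makeup of cells beside this, since 7 of 64 fresh and 44 of 132 MeOH-fixed cells were neurons. The pooled levels alone do not tell the number of neurons from the RNA per neuron. The median depth was 8572 UMIs in fresh and 5932 in MeOH-fixed neurons, and 28791 and 11563 UMIs in immature neurons. The part of each in the pooled ratios was not tested. Within immature neurons, 0 of 30 members were called higher in the MeOH-fixed library, beside 3.18% of all genes, and 1 lower, Syt7, beside 2.85%. The vesicle and release genes had a ratio of 1.04 (0.981 to 1.11) and the adhesion and scaffold genes of 1.04 (0.964 to 1.13), and the median log2 ratio was -0.02 over the 30 members and 0.11 over all genes tested. Snap25 was 1.04-fold (0.876 to 1.23), Cplx2 1.02-fold (0.852 to 1.24) and Nrgn 1.07-fold (0.982 to 1.16) higher in MeOH-fixed immature neurons. Nsf was 1.34-fold (1.13 to 1.60) and Vamp2 1.51-fold (1.15 to 2.03) higher there, below the 2-fold limit. Syt7 was 2.45-fold (1.91 to 3.14) lower, and also 2.45-fold lower without the deepest cell of each library. The 5 mature markers, all detected in both libraries, moved with it, at 1207 CPM in fresh immature neurons (544 to 3090 CPM over cells) and 537 CPM in MeOH-fixed ones (0 to 1943 CPM), while the 3 granule neuron markers stood at 427 and 1120 CPM (0 to 1030 and 0 to 2330 CPM over cells). Their part in the Syt7 difference was not tested. In nIPCs and neuroblasts, the vesicle and release genes had a ratio of 1.02 (0.897 to 1.16).

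**Figure D4:**
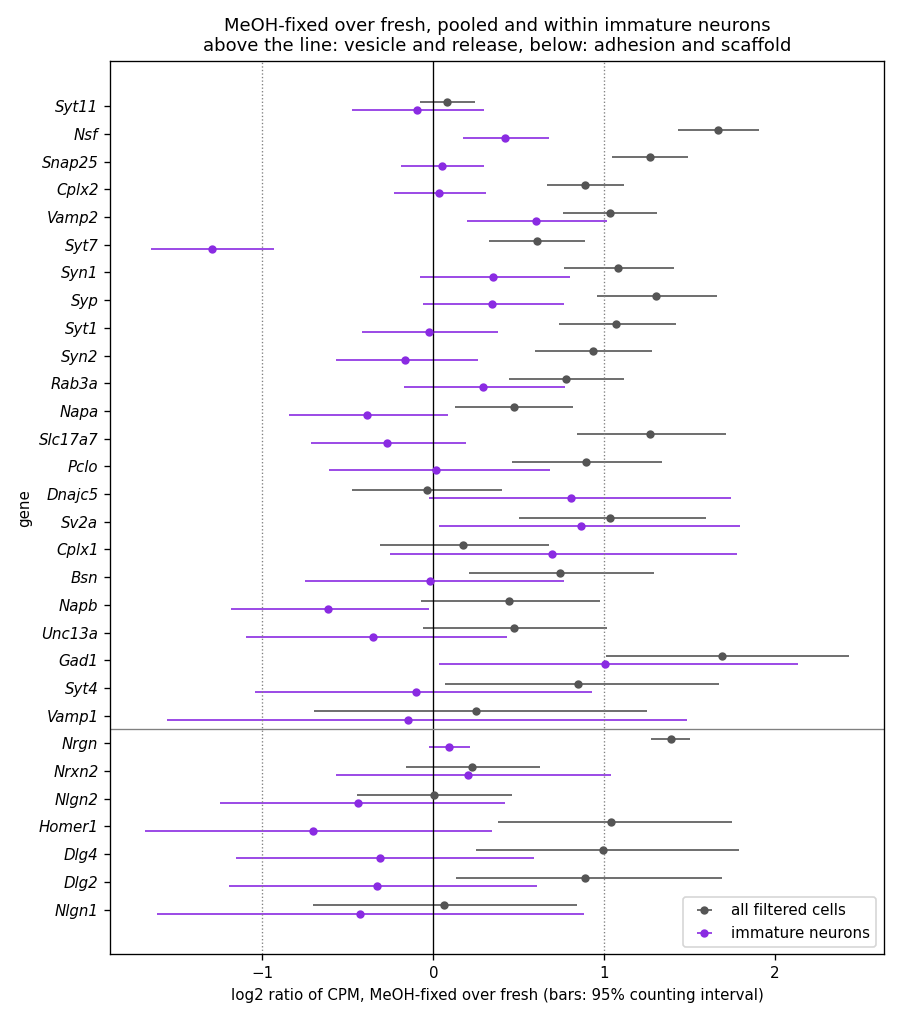
Log2 ratio of CPM, MeOH-fixed over fresh, for the members with at least 20 UMIs in both comparisons, over all filtered cells (grey) and within immature neurons (purple), with lines for the exact 95% counting interval and dotted lines at a 2-fold ratio. Most grey points lie right of 0 while the purple ones scatter about it, and Syt7 within immature neurons stands apart at -1.29.

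Counting each identity alike, the ratio of the vesicle and release genes was 0.40 on the log2 scale in place of 0.84, and 0.013 without mature neurons, whose fresh cells are in doubt. The number of members called higher then fell from 12 to 3 and 1. The share of all genes called at these weights is not given here, so that this fall is not read as a result about the members. Without neurons the ratio was 0.13. For the adhesion and scaffold genes the same steps gave 0.71, 0.43 and 0.76 in place of 1.19.

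Mature neurons could be described in the MeOH-fixed library alone. There, 3 of 33 members were called higher than in immature neurons, beside 7.82% of all genes, and 8 lower, beside 10.9%. The 3 higher ones were Syt7, 3.64-fold (2.89 to 4.59), Nrxn3, 4.16-fold (1.72 to 10.3), and Homer1, 4.17-fold (2.42 to 7.24). Of the 32 UMIs of Homer1 in mature neurons, 22 lay in the deepest cell, which held 19461 UMIs, and without the deepest cell of each identity Homer1 was 1.50-fold higher and not called. Syt7 was 3.75-fold higher without those cells, and Nrxn3, with 8 UMIs left in mature and 7 in immature neurons, was below the minimum. The 8 lower members were Syt11, Vamp2, Rab3a, Cplx2, Nsf, Napb, Dnajc5 and Nrgn. Nrgn was 3.04-fold (2.65 to 3.49), Nsf 3.00-fold (2.32 to 3.94) and Cplx2 3.73-fold (2.67 to 5.36) lower in mature neurons. Without the deepest cells, 1 of 28 members was called higher and 9 lower, with Snap25 added. The share of all genes called without these cells is not given here. Pclo, at 1.98-fold (1.37 to 2.83), and Unc13a, at 1.76-fold (1.07 to 2.84), stood above immature neurons without passing the limit. Of the 50 UMIs of Pclo in mature neurons, 20 lay in the deepest cell. Without the deepest cells Pclo stood at 1.48-fold and Unc13a at 1.80-fold. As sums, the vesicle and release genes had a ratio of 0.680 (0.632 to 0.732) and the adhesion and scaffold genes of 0.442 (0.394 to 0.495). Without Nrgn the latter had a ratio of 1.45 (1.16 to 1.81). The deepest mature neuron held much of that last sum, with 22 of 32 UMIs of Homer1 and 14 of 23 of Nlgn2. The ratio of this sum without that cell is not given here, so that 1.45 is not read as a trait of mature neurons. The mature neurons were shallower, at a median of 2554 UMIs beside 11563 UMIs in immature neurons, and held 14.2% against 6.40% mitochondrial UMIs, and the part of both in these ratios was not tested.

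Counted per cell, members were found in more neurons than other cells at equal depth. After thinning to 800 UMIs, a member was found on average in 18.6% of fresh and 21.4% of MeOH-fixed neurons, and in 3.78% and 5.19% of non-neuronal cells. Without the 2 doubtful cells the fresh share was 25.5%, beside 24.0% in MeOH-fixed immature neurons, so that the order of the libraries turned. Unthinned, the shares were 46.4% and 53.0% in neurons, at median depths of 8572 and 5932 UMIs, and 14.0% and 13.2% in non-neuronal cells. The median thinned cell held 10 members in fresh and 9 in MeOH-fixed immature neurons, 6 in MeOH-fixed mature neurons, 3 in nIPCs and neuroblasts of both libraries, and 1 and 2 in non-neuronal cells. Of the 25 vesicle and release genes with at least 20 UMIs, 17 were highest in immature neurons in the fresh library, with its mature neurons left out, 15 in the MeOH-fixed library and 13 in both. Of the 9 adhesion and scaffold genes the numbers were 5, 3 and 3. The share of all genes highest in immature neurons is not given here, and some members reached 20 UMIs only through neurons. These numbers are thus not read as a result about the members.

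Other genes of the synapse, not members, gave the context. A list of 60 other vesicle and release genes had 56 in the counts, and a list of 42 other adhesion and scaffold genes had 41. Over all cells, 13 of 37 and 8 of 39 tested were called higher in the MeOH-fixed library, beside 6.62% of all genes. In either list 0 were called lower, beside 5.21%. Within immature neurons, 1 of 30 and 0 of 33 were called higher, beside 3.18% of all genes, and 1 and 1 lower, beside 2.85%. In neurons against non-neuronal cells, 17 of 25 and 10 of 24 were called higher in the fresh library, beside 17.8% of all genes. Without the doubtful cells the counts were 15 of 23 and 11 of 24. In the MeOH-fixed library 24 of 34 and 21 of 36 were called higher, beside 22.8%. Between immature neurons and nIPCs with neuroblasts, 12 of 23 and 10 of 26 were called higher in the fresh library, beside 17.7% of all genes. In the MeOH-fixed library the counts were 17 of 29 and 16 of 32, beside 17.6%. In MeOH-fixed mature against immature neurons, 1 of 30 and 2 of 34 were called higher, beside 7.82% of all genes, and 5 and 4 lower, beside 10.9%.

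Among the 5 other synaptic genes with the largest ratio between the libraries were Syt5, Doc2b, Syt13 and Dnm1. Syt5, another synaptotagmin, had 39 fresh and 204 MeOH-fixed UMIs, 73.0 and 280 CPM, a log2 ratio of 1.94. The log2 ratios were 1.90 for Doc2b, a calcium sensor of release, 1.86 for Syt13 and 1.67 for Dnm1, the dynamin of vesicle retrieval. Over the UMIs of both libraries together, the 5 with the largest ratio of neurons over non-neuronal cells were Doc2b at 54.8-fold (9.43 to 2205), Erc2, an active zone protein, at 48.0-fold (18.4 to 178), Syn3, synapsin III, at 47.7-fold (8.15 to 1924), Syt13 at 45.0-fold (15.1 to 221) and Sncb at 39.9-fold (18.1 to 110). These intervals overlap, so that no order among the 5 is read. The libraries differed in their share of neurons, and Doc2b had 0 fresh and 1 MeOH-fixed UMI in non-neuronal cells. Erc2 was 56.5-fold (14.8 to 480) higher in fresh and 45.8-fold (12.4 to 382) higher in MeOH-fixed neurons.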

How the data were processed

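SORT-seq plates of fresh and MeOH-fixed dentate gyrus cells, 1 library per condition, were analysed. The authors mapped reads to GRCm38 with STAR and used R 4.2.0 and Seurat 4.1.0, per the submitters' processing notes, and deposited expected counts, which are UMI counts raised for UMIs used by more than 1 molecule. Whole UMIs were recovered by inverting that adjustment for 4096 possible UMIs. The results differed from whole numbers by at most 3.64e-12, and the adjustment had raised counts by 1.15%. No count column stayed unmatched to a sample. Both plates used the same numbered wells. Of the wells that passed the filter, 24 numbers occurred on both plates, which are separate cells.

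UMIs were summed over the cells of an identity or library (Python 3.11.15, pandas 2.3.3, numpy 2.4.6, scipy 1.17.1). With 1 library per condition, no test was run and no SD is given. Ratios of counts carry exact intervals conditional on the sum of both counts, and shares carry Clopper-Pearson intervals, all at 95%. A gene with 0 UMIs was set to a floor of 3 UMIs for a bound. Shares of cells with a UMI were taken after each cell was thinned to 800 UMIs with a fixed seed, and no cell fell below that depth. Doublets were not called. The calling rule was tested on simulated data. Depth was 971 to 31563 UMIs per fresh and 1000.0 to 34333 per MeOH-fixed cell.

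The members and gene lists were chosen with earlier results of these data known. Members with at least 20 UMIs over both libraries are described. Other synaptic genes were named where they ranked among the 5 largest ratios of at least 50 UMIs, and 1 of them is not reported here. Alternatives changed the counts used, the scaling, the cells, the weights of identities, the count minimum and the fold, and some were chosen after seeing the data. The marker lists are those the study names, with lists of granule neurons, interneurons, and mossy and CA3 cells added. Promoters came from the RefSeq table. Protein sequences were not used here.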

Additional observations from a re-analysis of the deposited data

Results flagged for a closer look

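Syt7 was set apart because its MeOH-fixed over fresh ratio had opposite signs in both neuronal identities, at a log2 ratio of 4.47 in mature and -1.29 in immature neurons. The first ratio rests on 1 UMI in the 2 fresh cells labelled mature neurons, which lack neuronal markers, and the difference was not tested.

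The barcodes that failed the filter, 320 fresh and 252 MeOH-fixed and including wells left empty, also held transcripts of these genes. The vesicle and release genes stood at 6043 CPM in failed fresh and 3646 CPM in failed MeOH-fixed barcodes, beside 4902 and 8756 CPM in the filtered cells. The adhesion and scaffold genes stood at 3182 and 2869 CPM, beside 2058 and 4701 CPM, and Nrgn alone at 2733 and 2295 CPM.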

How the results depend on the processing

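Of 78 recomputed values, 33 stayed within the interval or within 1.5 times the count reported, 45 moved and 0 changed a call in sign. The expected counts as deposited and CPM without mitochondrial genes moved none. All values below are log2 ratios unless said. Taken as mean counts per cell, which shift the median gene by -0.50, MeOH-fixed over fresh was 0.24 for vesicle and release genes and 0.60 for adhesion and scaffold genes, and -0.61 and -0.61 within immature neurons. As the mean of each cell's CPM, the values were 0.72 and 1.38, and -0.38 and 0.20 within immature neurons. Neurons over non-neuronal cells then gave 2.86 (vesicle, fresh), 3.09 (adhesion, fresh) and 2.46 (adhesion, MeOH-fixed), and immature neurons over nIPCs 2.17 (vesicle, fresh). With equal weight for each identity the ratios were 0.40 and 0.71, with mature neurons left out as well 0.013 and 0.43, and with neurons left out 0.13 and 0.76.

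Without Syt11 the vesicle and release genes gave 0.98 between libraries, 3.65 (fresh) and 3.50 (MeOH-fixed) in neurons over non-neuronal cells, and 2.03 and 2.05 in immature neurons over nIPCs. Without Nrgn the adhesion and scaffold genes gave 0.44 between libraries, -0.21 within immature neurons, 0.91 and 1.05 in neurons over non-neuronal cells, and 1.48 and 1.19 in immature neurons over nIPCs. With nIPCs and neuroblasts counted as neurons, the vesicle and release genes gave 1.70 and 2.02 and the adhesion and scaffold genes 2.35 and 2.64. With immature neurons alone as fresh neurons, the vesicle and release genes gave 2.66. Without the deepest cell of each library, the adhesion and scaffold genes gave 0.35 within immature neurons.

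The 12 members called higher became 3 with equal weights and 1 without mature neurons too, and the 1 called lower became 0, 2 and, at a minimum of 50 UMIs, 0. No share of all genes is given beside these counts. The mean share of neurons with a member was 46.4% and 53.0% unthinned and 26.3% and 36.1% at 2000 UMIs, and 25.5% in fresh immature neurons alone. Weights without mature neurons, immature in place of all fresh neurons, and leaving out the shallowest fresh cell or the deepest cells of mature and immature neurons were chosen after seeing the data. No paired analysis was possible because each condition had 1 library. With 5 fresh immature neurons, 3 of which hold most UMIs, counts limit all fresh levels.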
